A study of Mus musculus with 5 samples.

Results

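The genes described here handle bile acids in the absorptive cells of the intestine. The set has 5 members, namely Slc10a2, Fabp6, Slc51a, Slc51b and Fgf15, taken by name, with every probe set that GEO's platform annotation gives to each. Of these 5 genes, 4 had a probe set, with 1 probe set each among 22626 on the array, and they were compared with 12393 genes in all. Slc51b had no probe set under its name and was not analysed here.

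Expression was measured on 5 Affymetrix arrays. The 3 tumour arrays (tumours 16, 18 and 2) held RNA of intestinal tumours from male Apc1638N mice on a C57Bl6/J background. The 2 wild-type arrays (wild types 36 and 62) held RNA of normal intestinal epithelial cells from male C57Bl6/J mice, and all animals were 8 months old. Apc1638N is a truncating allele of Apc, a brake on Wnt signalling, and the tumours that it gives in mice arise mainly in the small intestine. All samples were laser capture microdissected for epithelium. The labels name no gut segment for any sample and leave unsaid whether samples of a group are separate animals. Each p-value therefore measures spread among these arrays, which may be technical.

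Bile acids are made in the liver, released into the duodenum and recovered mainly in the ileum, the last segment of the small intestine. Slc10a2 (also called ASBT) takes them up across the brush border, Fabp6 binds them in the cytosol, and the paired subunits Slc51a and Slc51b (organic solute transporter alpha and beta) release them to the blood. Bile acids bind the nuclear receptor FXR, encoded by Nr1h4, which switches on Fabp6, Slc51a, Slc51b and the hormone gene Fgf15 in the mouse ileum, and Fgf15 lowers bile acid synthesis in the liver. Slc10a2, Fabp6 and Fgf15 serve as markers of ileum in mice, whereas Slc51a is strongest in ileum without being limited to it.

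The stretches just upstream of the measured genes are shown because FXR acts on some of them through paired recognition sites. They are RefSeq sequences of build GRCm38.p6, the 250 bases before each gene's start, 5′ to 3′ on the gene's own strand. Capitals mark the motifs that were searched on both strands: an inverted repeat of the FXR type (GGTNA and its reverse complement TNACC, 1 base apart), the nuclear receptor hexamer AGGTCA, the HNF1 hexamer GTTAAT, the GATA motif AGATAA, the CDX motif TTTATG and the TATA box TATAAA. The letters of the inverted repeat were chosen with the Fabp6 sequence known.
Slc10a2, uptake, chr8:5105288-5105537, minus strand: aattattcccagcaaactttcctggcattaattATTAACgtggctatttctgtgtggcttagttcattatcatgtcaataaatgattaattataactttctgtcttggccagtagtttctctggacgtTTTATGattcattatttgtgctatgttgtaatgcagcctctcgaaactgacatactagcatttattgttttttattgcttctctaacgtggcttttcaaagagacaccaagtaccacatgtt
Fabp6, cytosolic binding, chr11:43601563-43601812, minus strand: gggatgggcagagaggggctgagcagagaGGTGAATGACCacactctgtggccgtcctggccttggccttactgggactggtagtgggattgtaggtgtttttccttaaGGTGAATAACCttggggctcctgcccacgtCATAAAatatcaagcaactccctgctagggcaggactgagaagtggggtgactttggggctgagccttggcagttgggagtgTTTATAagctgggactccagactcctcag
Slc51a, export, chr16:32487880-32488129, minus strand: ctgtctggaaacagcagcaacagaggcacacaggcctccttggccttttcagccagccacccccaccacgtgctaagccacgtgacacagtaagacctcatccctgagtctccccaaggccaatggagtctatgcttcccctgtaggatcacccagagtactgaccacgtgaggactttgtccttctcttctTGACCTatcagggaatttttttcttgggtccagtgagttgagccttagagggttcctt
The Fabp6 stretch held 2 inverted repeats, GGTGAATGACC at 221 to 211 bases and GGTGAATAACC at 141 to 131 bases before the start, and 0.219% of 32851 stretches of this length in the RefSeq table held at least 1. It also held a CDX motif, found in 10.8% of stretches, and a TATA box, found in 12.4%. Slc10a2 held an HNF1 hexamer (6.43% of stretches) and a CDX motif, and Slc51a held a nuclear receptor hexamer (14% of stretches). A match of letters is a description and not a shown binding site. No such stretch was at hand for Fgf15.

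Of the 4 measured genes, Slc51a fell strongly in tumours, and Slc10a2, Fabp6 and Fgf15 differed by small amounts that did not pass the test. A gene is called when its adjusted p is below 0.05 in limma, a linear model fitted to all 12393 genes. That made 1 of 4 members called, against 21.7% of all genes called in either direction; 10.5% of all genes were called lower and 11.3% higher. The groups did not overlap for 3 of 4 members, against 50.7% of all genes. The median change of the 4 members was -0.06, against 0.00 over all genes (log2, tumour minus wild type). With 4 members, the count says little about the set, so each gene is described on its own. The counts of the other gene lists below are to be read against the same shares of all genes.

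Slc10a2, the uptake transporter, gave log2 signals of 4.02, 4.12 and 4.02 in tumours 16, 18 and 2, and 3.94 and 4.03 in wild types 36 and 62. The groups overlapped, with wild type 62 above tumours 16 and 2, and tumours 16 and 2 held the same value to the last digit. The means were 4.06 ± 0.06 in tumours (SD, n = 3) and 3.99 ± 0.07 in wild type (SD, n = 2). The change of 0.07 (SE 0.06) had a 95% interval of -0.08 to 0.22 and a limma adjusted p of 0.422. The probe set was among the dimmest on every array, at percentiles 0.292 to 0.468 of all probe sets in tumours and 0.159 to 0.261 in wild type.

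Fabp6, the ileal bile acid-binding protein, gave 5.54, 5.47 and 5.46 in tumours 16, 18 and 2, and 5.09 and 5.34 in wild types 36 and 62. All tumours lay above both wild types, and wild type 36 was the lowest. The means were 5.49 ± 0.04 in tumours (SD, n = 3) and 5.21 ± 0.18 in wild type (SD, n = 2). The change of 0.28 (SE 0.09) had a 95% interval of 0.04 to 0.51 and a limma adjusted p of 0.09985, so it did not pass. Groups that do not overlap with tumours higher were found for 27% of all genes. The gap between the wild types, -0.25 as wild type 36 minus 62, was close in size to the change itself. The Fabp6 signal also lay low on every array, at percentiles 11.4 to 12.8 in tumours and 6.15 to 9.49 in wild type.

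Slc51a, the alpha subunit of the basolateral exporter, gave 7.10, 6.78 and 7.56 in tumours 16, 18 and 2, and 10.09 and 9.64 in wild types 36 and 62. Both wild types stood well above all tumours, with tumour 18 the lowest and tumour 2 the highest tumour. The means were 7.15 ± 0.39 in tumours (SD, n = 3) and 9.87 ± 0.32 in wild type (SD, n = 2). Slc51a fell by 2.72 on the log2 scale (SE 0.29, 95% interval -3.49 to -1.94), which is 6.58-fold lower, with a limma adjusted p of 0.0103. Set against the wild-type mean, tumours 16, 18 and 2 differed by -2.76, -3.08 and -2.31. By size of change it ranked at place 113 of 12393 genes. The probe set lay at percentiles 47.1 to 68.7 in tumours, and at 94.97 and 92.4 in wild types 36 and 62. In such samples, fewer absorptive cells and less Slc51a RNA per cell cannot be told apart.

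The Slc51a probe set carries the suffix _s_at, which Affymetrix gives to probe sets that can match more than 1 transcript, and no other probe set was annotated to the gene. Its call was lost without tumour 16 (change -2.70, adjusted p = 0.0600 in limma), without wild type 36 (-2.49, 0.0746) and without wild type 62 (-2.95, 0.0722). It held without tumour 18 (-2.54, 0.0393) and without tumour 2 (-2.92, 0.0162). With tied probe sets (equal values on all arrays of 1 group) dropped as well, Slc51a was called in all 5 of these fits, with adjusted p between 0.00544 and 0.0402 in limma. Without wild type 62, 0 genes of the whole array were called, although 3880 had an unadjusted p under 0.05.

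Fgf15, the ileal hormone that acts on the liver, gave 6.45, 6.40 and 6.48 in tumours 16, 18 and 2, and 6.69 and 6.59 in wild types 36 and 62. All tumours lay below both wild types by a narrow margin. The means were 6.45 ± 0.04 in tumours (SD, n = 3) and 6.64 ± 0.07 in wild type (SD, n = 2). The change of -0.20 (SE 0.05) had a 95% interval of -0.33 to -0.06 and a limma adjusted p of 0.0593, so it did not pass. Groups that do not overlap with tumours lower were found for 23.7% of all genes. The size of the difference was 1.15-fold, against 6.58-fold for Slc51a, and the signal lay at percentiles 35.1 to 38.6 in tumours and 42.7 to 46.2 in wild type.

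**Figure D1:**
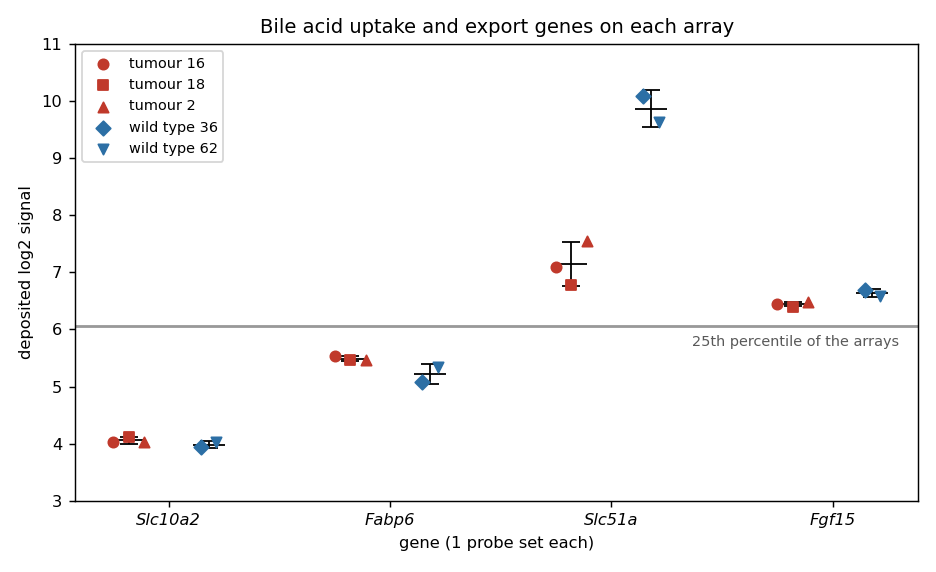
Deposited log2 signal of the 4 measured genes, 1 point per array, with Apc1638N tumours (red) left of wild type (blue); black marks are the mean and SD. Slc51a separates at 6.78 to 7.56 in tumours against 9.64 to 10.09 in wild type, while Slc10a2 and Fabp6 lie under the 25th percentile of every array (grey line) in both groups.

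Taken alone, each gene met the limit of so few arrays. The exact two-sided permutation p was 0.1 for Slc51a, Fabp6 and Fgf15, which is the smallest that 3 against 2 arrays can give, and 0.6 for Slc10a2.

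The genes whose profile over the 5 arrays was most like that of Slc51a were Mttp, Slc27a4 and Cox7a1, with root mean square differences of 0.169, 0.171 and 0.176 after each profile was set against its wild-type mean. Mttp, which loads lipid onto chylomicrons, fell by 2.83 (SE 0.35), and Slc27a4, a fatty acid transport protein, fell by 2.69 (SE 0.25). Cox7a1, a subunit of cytochrome c oxidase, fell by 2.83 (SE 0.34). The flat profiles of the other members had many near neighbours, with 3787 genes within 0.1 of Slc10a2, 857 of Fgf15 and 401 of Fabp6, against 0 of Slc51a. Snx22, Mfsd3 and Mnx1 were the nearest to Slc10a2, Zfp821, Nudt2 and Ptbp1 to Fabp6, and Ces1c, Tbc1d22a and Ergic3 to Fgf15.

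**Figure D2:**
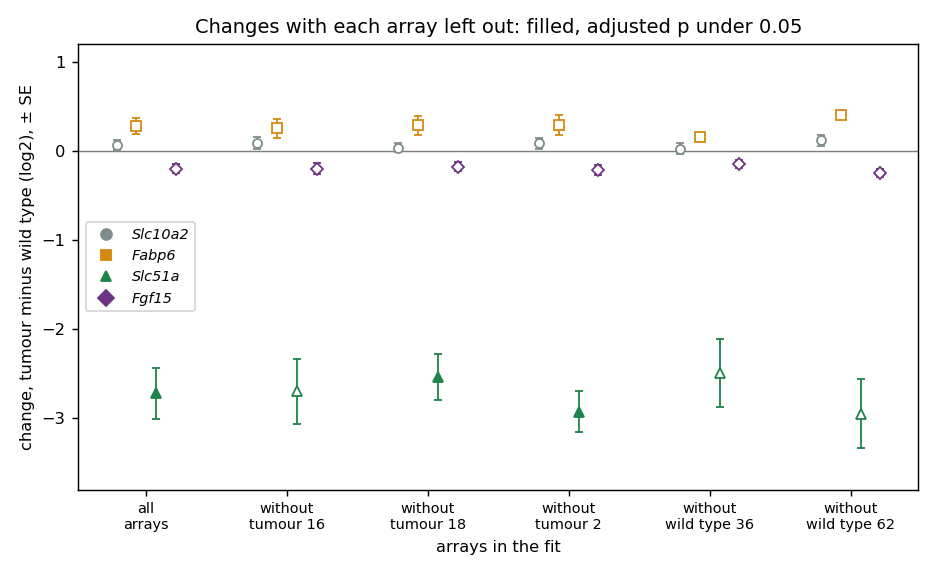
Change of the 4 genes (log2, tumour minus wild type, with SE) with all 5 arrays and with each array left out. Slc51a stays between -2.95 and -2.49, with filled points where it was called, while Slc10a2, Fabp6 and Fgf15 lie between -0.25 and 0.40 and are uncalled.

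Some efflux pumps of the enterocyte fell beside Slc51a. Of 12 measured transporters of bile acids, sterols and organic anions, 5 fell, 0 rose and 7 did not pass, with a median of -0.67. Abcg5 and Abcg8, which together return plant sterols to the gut lumen, changed by -3.52 (SE 0.21) and -1.36 (SE 0.11). Abcc2, an apical pump for conjugated anions, fell by 3.37 (SE 0.34), the apical pump Abcg2 fell by 3.08 (SE 0.22) and the drug pump Abcb1a fell by 2.26 (SE 0.48). Abcg5 gave 7.68, 7.83 and 8.26 in tumours 16, 18 and 2, and 11.32 and 11.57 in wild types 36 and 62, whereas Abcb1a gave 7.82, 7.84 and 7.66 in tumours and 9.28 and 10.80 in wild type, so its wild types lay far apart. Its other probe set differed by -1.71 (limma adjusted p = 0.0551 over probe sets). The Abcb1a call was lost whichever tumour array was left out. Abcc3, a basolateral pump that can carry bile acids out of the cell beside Slc51a, gave 7.87, 7.21 and 8.28 in tumours and 9.25 and 8.77 in wild type, a change of -1.22 (SE 0.37) with a limma adjusted p of 0.0917. The 6 other transporters, largely of liver cells, differed by -0.12 to 0.19 and did not pass. Refits lacking 1 array, tumour 16, 18 or 2 or wild type 36 or 62, called 4, 4, 4, 3 and 0 of these genes.

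The receptor for bile acids did not pass in either direction. Nr1h4, which encodes FXR, gave 7.85, 7.85 and 7.40 in tumours and 8.08 and 7.85 in wild type, a change of -0.27 (SE 0.18, limma adjusted p = 0.369). For Nr1h4, tumours 16 and 18 and wild type 62 held the same value to the last digit, so these are not 5 distinct readings. Nr0b2 (SHP), a repressor that FXR induces, differed by -0.34 (SE 0.19, limma adjusted p = 0.286). The 3 measured members that FXR is known to switch on differed by 0.28 (Fabp6), -2.72 (Slc51a) and -0.20 (Fgf15). Fabp6 lay below the 25th percentile and Fgf15 below the median of every array, wild type included, so a fall of either could be hard to see. Whether FXR had a part in these changes was not tested. Of 9 measured receptors and partners, 3 fell and 1 rose. The vitamin D receptor gene Vdr, whose product also binds lithocholic acid, fell by 1.57 (SE 0.20), and the xenobiotic receptor genes Nr1i3 and Nr1i2 changed by -1.33 (SE 0.09) and -0.70 (SE 0.11). Rxrb, a partner of these receptors, rose by 0.38 (SE 0.08), a call that was lost whichever tumour array was left out. These counts use each gene's brightest probe set. Fgfr4, the receptor of Fgf15, differed by -0.06 in its brightest probe set, but another gave 8.06, 8.21 and 7.75 in tumours and 6.45 and 6.36 in wild type, a rise of 1.60 (limma adjusted p = 0.0102 over probe sets), and its 3 others differed by -0.02 to 0.03. Rxra differed by -0.07 in its brightest probe set and fell by 0.59 in the other (limma adjusted p = 0.0396 over probe sets), and the other Nr1i2 probe set differed by -0.33 (limma adjusted p = 0.0676). The same 5 refits called 1, 1, 3, 1 and 0. Of 10 genes of bile acid synthesis and conjugation, largely liver enzymes, Amacr fell by 0.73 (SE 0.05) and 9 did not pass; Amacr was called in each of these fits except the one without wild type 62.

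**Figure D3:**
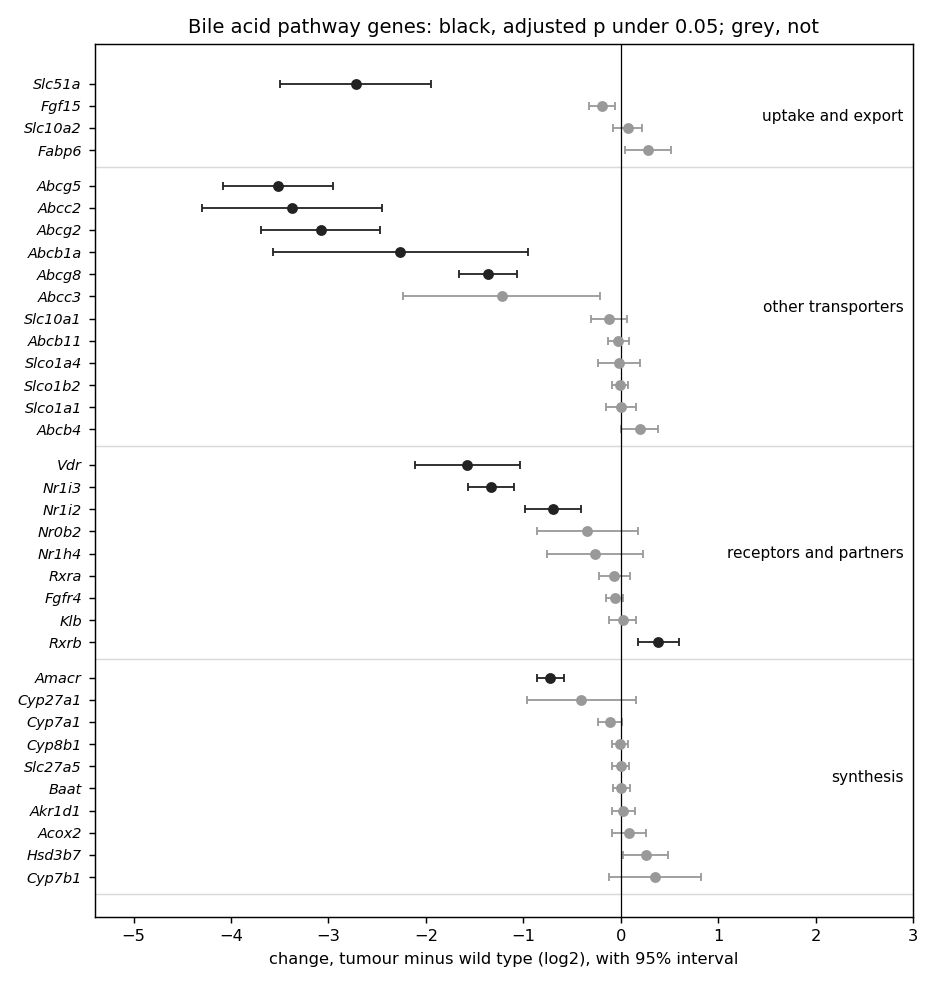
Change of each measured bile acid gene (log2, tumour minus wild type) with its 95% interval, in 4 groups; black points were called. Slc51a at -2.72 and 5 other transporters, from Abcg5 at -3.52 to Abcg8 at -1.36, stand left of 0, while Slc10a2, Fabp6 and Fgf15 lie within 0.28 of it.

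Among 12 measured transcription factors of the small intestine, 2 fell and 10 did not pass, against 21.7% of all genes called in either direction. Gata4, which in mice keeps ileal genes such as Slc10a2 silent in the proximal small intestine, fell by 0.57 (SE 0.09) in its brightest probe set, while its other probe set differed by 0.00 (limma adjusted p = 0.947 over probe sets). That other Gata4 probe set gave 5.88, 5.88 and 5.87 in tumours and 5.88 in both wild types. These values lay below the 25th percentile of each array and were nearly all tied, so they say little about Gata4. Hnf4g, a regulator of enterocyte genes, fell by 1.22 (SE 0.12), and Hnf4a differed by 0.00 (SE 0.10) in its brightest probe set, although a dimmer one fell by 0.50 (limma adjusted p = 0.0119 over probe sets). Nr5a2, an activator of Slc10a2 in mice, differed by -0.67 (SE 0.17, limma adjusted p = 0.0619) and Cdx2, the master factor of intestinal identity, by -0.07 (SE 0.05). For Cdx2, tumours 16 and 2 and wild type 62 held the same value to the last digit. Srebf2, a regulator of cholesterol genes, differed by 0.02 in its brightest probe set and rose by 0.35 in the other (limma adjusted p = 0.0289 over probe sets). The same 5 refits called 0, 2, 2, 1 and 0 of these factors.

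Among close relatives of the members, genes of the fatty acid-binding family to which Fabp6 belongs passed in both directions. Fabp2, the fatty acid-binding protein of the small intestine, fell by 2.73 (SE 0.42), and Fabp5, which is common in dividing epithelium, rose by 1.98 (SE 0.14). Fabp4, a protein of fat cells, fell by 0.18 (SE 0.04) in its brightest probe set, while its other 3 differed by -0.11 to 0.10 and did not pass. The Fabp4 call was lost whichever tumour array was left out. Among 10 measured relatives of the set, 1 rose, 2 fell and 7 did not pass. The same 5 refits called 2, 1, 3, 0 and 0 relatives.

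The members were also used to judge gut position, which the labels do not give. Both Slc10a2 and Fabp6 lay below the 25th percentile on all 5 arrays, and 2 of 4 members did so on both wild-type arrays, against 15.5% of all genes. Fgf15 lay below the median of every array. In neither group did any of these 3 ileal markers reach the upper part of the signal range. There is no array labelled ileum to show that these probe sets respond, each gene has a single probe set, and presence calls were not used, so a dim signal is not proof that the gene is silent.

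Most genes of the other position lists were not this dim, other distal genes included. On both wild-type arrays, 1 of 9 other distal, 0 of 17 proximal, 2 of 6 colon and 0 of 6 Brunner gland and gastric genes lay below the 25th percentile. By this cut alone, most other distal genes were not dim. The mean log2 signal of the distal list was 7.53 and 7.54 in wild types 36 and 62. That of the proximal list was 9.78 and 9.97, and that of all genes was 7.38 and 7.42. Signals of different probe sets do not share a common scale, so these list means do not place the samples along the gut. Of the 17 proximal genes, 9 fell in tumours, with 0 higher and a median of -2.03. Among these were Cyp2b10 (-4.72, SE 0.46), the lactase gene Lct (-4.41, SE 0.78), the folate transporter gene Slc46a1 (-3.17, SE 0.38) and the fructose transporter gene Slc2a5 (-2.32, SE 0.35), while Pdx1, a factor of duodenum, differed by -0.58 (SE 0.27, limma adjusted p = 0.218). Of 9 other distal genes, 3 fell and 0 rose, with a median of -0.64. These were Ces1f (-4.01, SE 0.34), Amn (-2.31, SE 0.18), whose product anchors the vitamin B12 receptor, and Clec2h (-2.02, SE 0.32), while Cubn, which encodes that receptor, differed by -0.59 (SE 0.32, limma adjusted p = 0.284). Pyy, also on the distal list, gave 8.13, 8.72 and 9.97 in tumours 16, 18 and 2, and 7.03 and 6.96 in wild types 36 and 62. Its change of 1.95 (SE 0.59) did not pass (limma adjusted p = 0.0914), and 8 of the 9 distal changes were negative. Of 6 colon genes, Car4 (-2.12, SE 0.39) and Slc26a3 (-2.002, SE 0.29) fell and 4 did not pass. Of 6 Brunner gland and gastric genes, Ctse (4.66, SE 0.30), Anxa10 (3.96, SE 0.56) and Gkn1 (0.80, SE 0.15) rose and 3 did not pass. The other probe set of Ctse differed by -0.10 (limma adjusted p = 0.546 over probe sets) and that of Gkn1 by 0.28 (0.0782), while that of Anxa10 rose by 2.84 (0.0213). The same 5 refits called 3, 5, 8, 1 and 0 proximal, 2, 2, 3, 2 and 0 distal, 0, 1, 1, 1 and 0 colon and 1, 3, 2, 0 and 0 gastric genes. Without tumour 2, the 3 distal calls were 1 higher and 2 lower, so they were not the same 3 falls. Clec2h, Slc2a5 and Car4 lost their calls whichever tumour array was left out. The other Clec2h probe sets changed by -3.74 and -2.38 (limma adjusted p = 0.00927 and 0.00651 over probe sets). Gut segment and tumour state cannot be told apart as causes of any change of a member, since no label gives the segment.

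**Figure D4:**
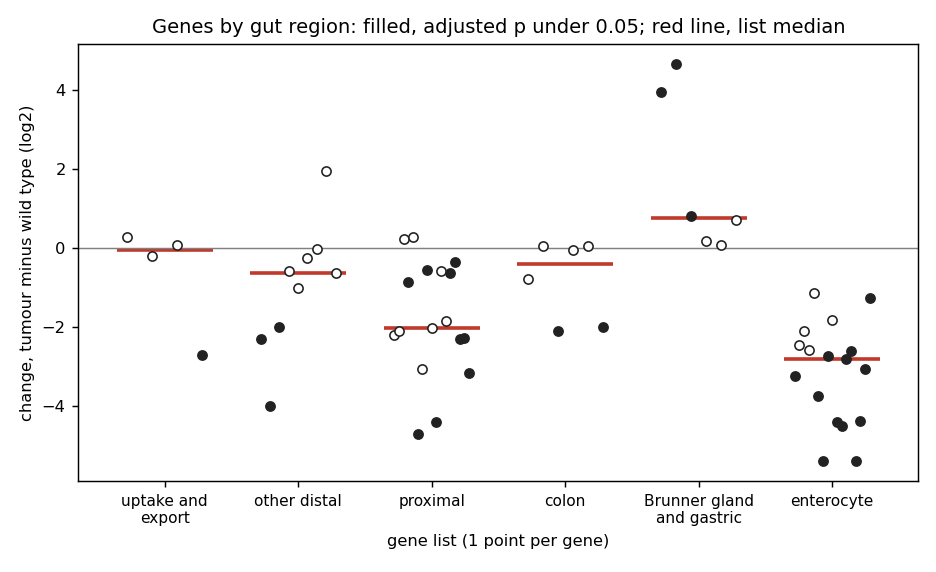
Change of each gene (log2, tumour minus wild type) in the bile acid set and in 5 lists; filled points were called and red lines are medians. The bile acid set has a median of -0.06 with Slc51a alone far below 0, the proximal and enterocyte lists have medians of -2.03 and -2.83, and the gastric list has 0.75.

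The change of Slc51a stood beside a wider fall of absorptive cell genes. Of 17 measured enterocyte genes, 12 fell, 0 rose and 5 did not pass, with a median of -2.83, and the same 5 refits called 7, 10, 13, 3 and 0. The glucose transporter gene Slc2a2 changed by -5.41 (SE 0.34), and the brush border peptidase genes Enpep and Mme by -5.41 (SE 0.58) and -4.52 (SE 0.78). Both Lct and Apoa4 stand in this list and the proximal one. Fabp2 is also counted among the relatives and Vil1 among the epithelial markers, so their falls there are not separate results. Gata4 is counted among both the transcription factors and the proximal genes. The mean log2 signal of the enterocyte list was 7.67, 8.65 and 8.45 in tumours 16, 18 and 2, and 11.47 and 11.38 in wild types 36 and 62. That mean was lowest in tumour 16 and Slc51a was lowest in tumour 18, an order over 3 arrays that was not tested. Of 8 epithelial markers, Krt18 and Krt19 rose, Vil1 fell and 5 did not pass, and the list mean was 11.19 to 11.50 in tumours and 11.06 to 11.19 in wild type. The same 5 refits called 1, 3, 3, 1 and 0 of them.

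Markers of other cells differed between the groups as well. The mean of 7 fibroblast markers was 7.83 to 9.33 in tumours and 6.94 to 7.24 in wild type, with 1 called higher (Dcn). The mean of 7 T cell markers was 6.62 to 6.88 in tumours and 7.93 to 8.22 in wild type, with 4 lower, and that of 4 B and plasma cell markers was 8.21 to 8.60 in tumours and 9.50 to 10.02 in wild type, with 2 lower. Among smooth muscle, macrophage, endothelial and hepatocyte markers, 1 of 5, 0 of 5, 0 of 3 and 1 of 4 were called, both higher. The same 5 refits called 0, 1, 3, 0 and 0 fibroblast, 1, 2, 3, 2 and 0 T cell and 0, 0, 1, 0 and 0 B and plasma cell markers. They called 0, 0, 1, 1 and 0 smooth muscle, 0, 1, 0, 0 and 0 macrophage and 0, 0, 1, 0 and 0 hepatocyte markers, and no endothelial marker in any. The gap between 3′ and 5′ beta-actin signal, a sign of RNA shortening, was 3.999 to 4.25 in tumours and 2.51 to 3.32 in wild type, and that of Gapdh was 4.50 to 4.83 in tumours and 3.67 to 4.01 in wild type. The part of these differences in the change of Slc51a was not tested.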

How the data were processed

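Per the labels' protocols, RNA of laser-captured cells was column-purified with DNase treatment and biotin-labelled by an Affymetrix small-sample protocol. The authors deposited 1 table of log2 signals for 22690 probe sets, whose range shows that scale. The affy package was used, per the submitters' processing notes. For background correction, normalization and summary, the method is not given in the sources used here. Array medians ran from 6.81 to 6.87, so values were used as deposited.

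The 64 control probe sets were set aside. Groups came from the sample titles, whose numbers only name samples. GEO's platform annotation gave 1 gene to 20380 probe sets, several to 691 and none to 1555, and 12393 genes were each represented by their brightest probe set. Symbols were checked against a RefSeq table of GRCm38.p6, and 0 changed. Tests used limma 3.58.1 in R 4.3.3 (lmFit, eBayes, two-sided, Benjamini-Hochberg over all genes, threshold 0.05), residual df 3, prior df 1.23. A second fit covered all 22626 probe sets. Gaps between Slc51a and the other members within an array were computed but are not reported, since dim probe sets make them restate the change of Slc51a. The number of arrays limits precision. The script was tested on simulated data.

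The members and the 18 other gene lists were chosen with earlier results of these data known. Named genes are the members, up to 4 called genes per list with the largest change and the largest called change against the majority, fixed regulators and position markers, and the 3 nearest profiles per member. Lists of cell types are given mainly by counts. Abcc3, Abcg8, Apoa4, Fgfr4, Pyy, Rxra and Srebf2 were named after their values were seen, as were the genes under other observations.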

Additional observations from a re-analysis of the deposited data

How the results depend on the processing

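Slc10a2, Fabp6, Slc51a and Fgf15 kept the direction of their change under every alternative that could give a value, of 18 run. Limma's trend and robust settings called 2 members instead of 1, since Fgf15 (-0.20) then passed with an adjusted p of 0.0476. Without probe sets that can match several transcripts, Slc51a had no probe set, 0 of the other 3 members were called (2 at an unadjusted p under 0.05), and 2224 probe sets were called, against 4139. Above a filter at the 40th percentile, Slc51a was the only member still tested. Leaving out 1 array gave 0 to 2380 called genes, 0 to 3424 called probe sets and 0 to 1 called members. With tied probe sets also left out and arrays left out in the order tumour 16, 18, 2, wild type 36, 62, called genes numbered 1507, 1830, 3069, 1544 and 1183, called probe sets 2288, 2697, 4790, 2435 and 1703, and called members 1 to 2. Over those 10 fits the change was -2.95 to -2.49 for Slc51a, -0.25 to -0.15 for Fgf15, 0.15 to 0.40 for Fabp6 and 0.02 to 0.12 for Slc10a2. Fabp6 passed in 1 of them, without wild type 62 and tied probe sets (adjusted p = 0.0477). In fits with 1 wild type, that array was assumed to vary like the tumours. No paired analysis was possible because the groups share no replicate number.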

Other observations

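The 2 wild-type arrays differed from each other in some genes of gut position. Over 53 genes of the proximal, distal, colon, gastric and enterocyte lists, the median gap between them was 0.21 on the log2 scale, and 4 genes had a gap over 1. Ada, an adenosine deaminase abundant in mouse duodenum, had 7.01, 9.78 and 10.33 in tumours 16, 18 and 2, which overlapped the 10.09 in wild type 36 and 12.42 in wild type 62. The fructose transporter gene Slc2a5 had 9.36 and 10.43, the carbonic anhydrase gene Car4 had 7.31 and 8.54, and the water channel gene Aqp8 had 7.84 and 6.42 in wild types 36 and 62. Among the members, wild type 36 exceeded wild type 62 by 0.46 for Slc51a and 0.10 for Fgf15, and the difference was -0.25 for Fabp6 and -0.09 for Slc10a2.

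Slc51b, which was not analysed here, holds an inverted repeat of the same type as Fabp6 in its upstream stretch in RefSeq, GGTCATTCACC at 186 to 176 bases before the start.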
